A study of Mus musculus with 2 samples.

Results

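Hepatic stellate cells and other mesenchymal cells were a minor population of 2 single-cell RNA-sequencing libraries that had been made to study liver sinusoidal endothelial cells (LSECs), the fenestrated cells that line the liver sinusoids. Barcodes were counted as mesenchymal members by their own RNA. A member held at least 1500 UMIs (unique molecular identifiers, each counted as 1 captured transcript) and at least 750 genes, and the raw UMIs of the collagen genes *Col1a1* and *Col3a1* and of *Dcn*, *Lrat*, *Reln*, *Rgs5* and *Colec11* summed to at least 5 in it, with at least 2 of these 7 genes detected. Of 10384 barcodes that passed the depth limits in both libraries, 73 were members. They were 24 of 4961 barcodes in the control library (0.484%, exact 95% interval 0.310 to 0.719%) and 49 of 5423 in the Maf LSEC-KO library (0.904%, 0.669 to 1.19%). These intervals, like all others given here, cover counting error only.

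Each library was 1 sample, made from 3 pooled mice, so no difference between the conditions could be tested against the spread between animals. The Maf LSEC-KO mice carried the *Clec4g-iCre* transgene and *Maf* fl/fl, so that Cre recombinase was driven by the promoter of the LSEC gene *Clec4g* and not by a stellate cell promoter. The control mice, labelled WT, were littermates without the transgene that still had floxed *Maf* alleles according to the study's methods. The age of the mice in these pools is not given separately in the sources used here. Cells were released by collagenase perfusion, passed over a density gradient and taken with beads against CD146 (the product of *Mcam*), an endothelial surface protein. This selection can set how many mesenchymal cells of each kind reached a library, and the shares of cells are to be read with it.

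Hepatic stellate cells lie between the sinusoidal endothelium and the hepatocytes. In the quiescent state they store vitamin A as retinyl esters, which are made by the enzyme encoded by *Lrat*, and they secrete factors that act on their neighbours, among them hepatocyte growth factor (*Hgf*), BMP9 (*Gdf2*), BMP10 and CXCL12. After injury they can become myofibroblasts, which contract and deposit collagen I and III. Other mesenchymal cells of the liver are the fibroblasts around the portal tracts, the smooth muscle cells of vessels, and the mesothelial cells of the liver surface.

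The targeted gene, *Maf* (mm10, GENCODE M21, chr8:115682942-115707794, minus strand), was lower in the Maf LSEC-KO library in the members as well as outside them. CPM here is UMIs of a gene per 1000000 UMIs outside mitochondrial and ribosomal protein genes. *Maf* stood at 3309 CPM in the control barcodes that were not members and at 153 CPM in the Maf LSEC-KO ones. Within the members it stood at 1414 CPM (446 UMIs) and 131 CPM (137 UMIs), a log2 ratio of Maf LSEC-KO over control of -3.44 (-3.72 to -3.16).

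The members of both libraries held RNA of endothelial cells. At least 2 UMIs of the pan-endothelial genes *Pecam1* and *Cdh5* were present in 16 of 24 control members (66.7%, 44.7 to 84.4%) and in 26 of 49 Maf LSEC-KO members (53.1%, 38.3 to 67.5%), and such barcodes are likely to be doublets or endothelial cells. Most of them were not shown to hold a mesenchymal cell: of the 16 and 26, 10 and 12 belonged to the members described below that carried an endothelial list alone, and 5 and 5 were stellate-like. This left 8 and 23 members with fewer than 2 such UMIs. No doublet caller was run on the libraries here. Members held 1897 to 45041 UMIs in control (median 12565) and 1780 to 91907 in Maf LSEC-KO (median 23478), against medians of 8573 and 13441 for all barcodes over the depth limits. The libraries shared 10 barcode sequences, and 0 of these were members.

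The 7 genes that chose the members were present at low counts in the other barcodes too. At least 1 UMI of *Dcn*, the gene of the matrix proteoglycan decorin, was present in 23 of 24 control members and 36 of 49 Maf LSEC-KO members, and in 3.28% and 3.68% of the other barcodes. The same shares of *Lrat* were 15 of 24 and 14 of 49, against 1.86% and 1.10% elsewhere. The summed UMIs of the 7 genes ran from 5 to 577 in control (median 22) and from 5 to 715 in Maf LSEC-KO (median 43). At the threshold itself, 3 control and 7 Maf LSEC-KO members had a sum of 5, while 7 and 14 barcodes with a sum of 4 stayed outside. None of these barcodes on either side of the threshold carried the stellate marker list described next.

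The name stellate cell held for a part of the members only. Marker lists of 6 kinds of mesenchymal, biliary and lymphatic cells were read without the 7 choosing genes, and a member was named for a list when at least 50% of its markers had 2 or more UMIs each, a limit set after the values had been seen. By this reading 8 control members and 9 Maf LSEC-KO members were stellate-like, which is 0.161% (0.0696 to 0.317%) and 0.166% (0.0759 to 0.315%) of the barcodes over the depth limits. The share of stellate-like cells thus differed between the libraries by less than its counting error. The stellate list was carried by 0 of 4937 and 0 of 5374 barcodes outside the members, which allows shares of up to 0.0608% and 0.0558%. One control cell carried 7 of 13 stellate markers, just the number needed, and 1 Maf LSEC-KO member missed it with 6. Leaving out each of the 13 markers in turn chose the same 8 and 9 cells for 13 of 13 markers.

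The other members fell into sets of unequal size. Mesothelial-like members, named from *Msln*, *Upk3b*, *Wt1* and 4 further genes, numbered 1 in control (0.0202%) and 10 in Maf LSEC-KO (0.184%). Cholangiocyte-like members numbered 2 and 8. Portal fibroblast-like and smooth muscle-like members were found in Maf LSEC-KO only, with 2 cells each, and 0 of 4961 control barcodes allows a share of up to 0.0605%. Lymphatic endothelial-like members numbered 1 and 2, and held *Dcn* (8 and 20 UMIs) and *Reln* (3 and 12 UMIs), of which lymphatic endothelium also expresses *Reln*. The remaining members carried the sinusoidal or vascular endothelial lists alone (12 in control, 12 in Maf LSEC-KO) or no list (0 and 4). No member carried more than 1 of the 6 lists.

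**Figure D1:**
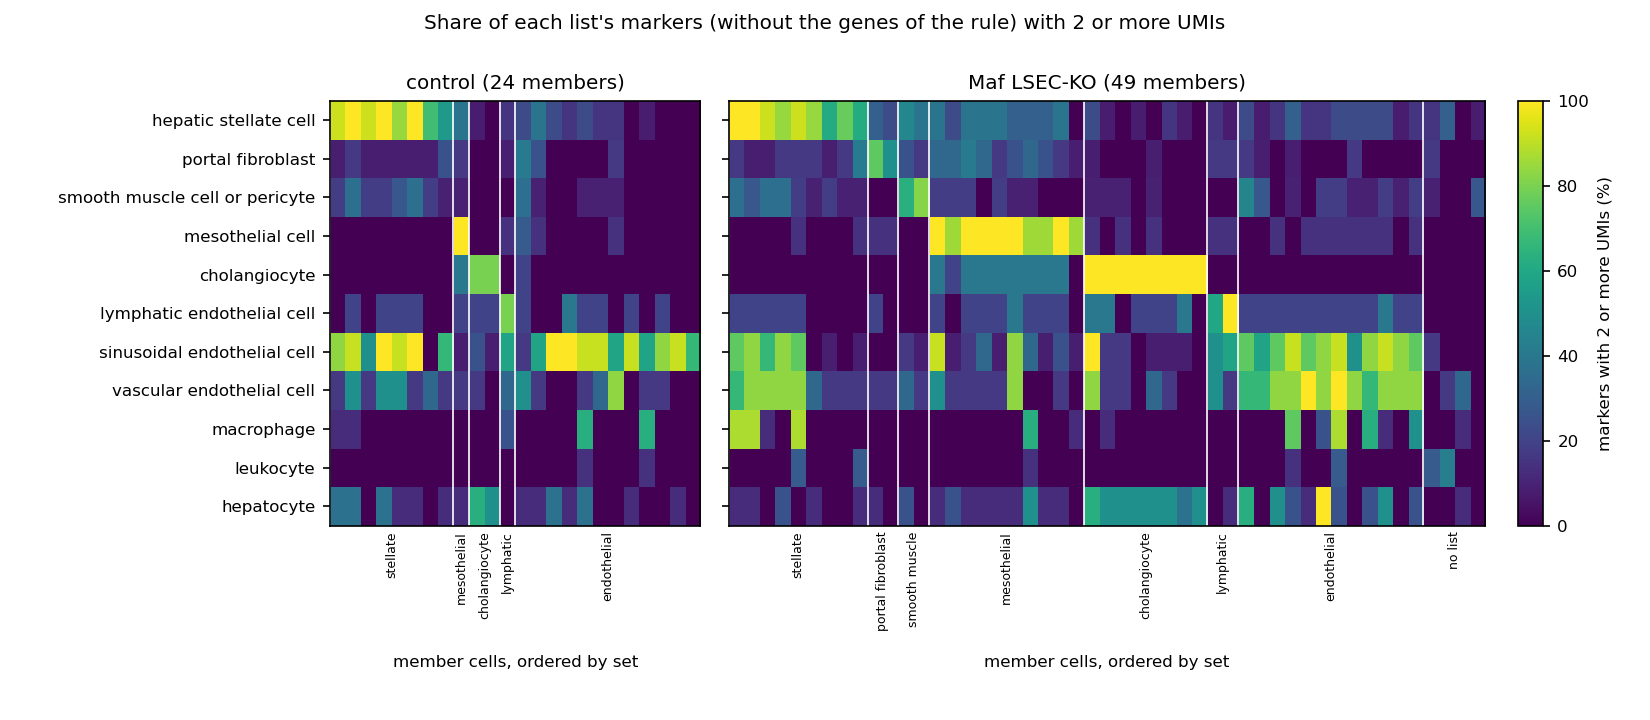
Heat map of the 24 control and 49 Maf LSEC-KO members, 1 column per cell, with colour giving the share (%) of each marker list present at 2 or more UMIs, the 7 choosing genes left out. The 8 and 9 stellate-like cells form a block of their own on the stellate list, and many of them also hold part of the sinusoidal endothelial list.

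**Figure D2:**
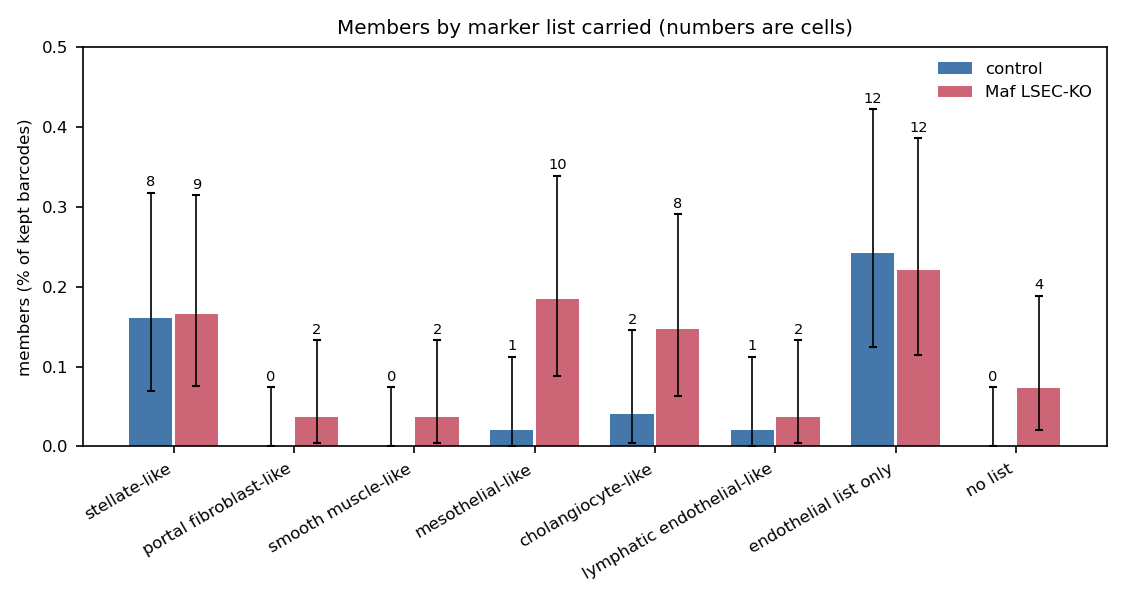
Bars give the share (%) of barcodes over the depth limits that fell into each set of members, with exact 95% intervals, for control and Maf LSEC-KO, 1 library each, and the number on each bar counts cells. Stellate-like cells stand at 0.161% and 0.166%, and mesothelial-like cells at 0.0202% and 0.184%.

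The stellate-like cells were identified by genes that played no part in choosing the members. *Lum*, the gene of the proteoglycan lumican, stood at 863 CPM in the control and 462 CPM in the Maf LSEC-KO stellate-like cells, and at 0.15 and 0.13 CPM in the barcodes that were not members. The genes that led this set included *Bmp5*, *Ednra* (an endothelin receptor), *Pdgfra* (a PDGF receptor), *Tnfrsf11b*, *Smoc2* and *Gdf2*. The smooth muscle actin gene *Acta2*, a marker of myofibroblasts, had 0 UMIs in 8 of 8 control and 9 of 9 Maf LSEC-KO stellate-like cells. Skeletal actin, *Acta1*, which the study's methods used to remove stellate cells, had 0 UMIs in all 73 members, and had a UMI in 2 control and 12 Maf LSEC-KO barcodes in all.

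Stellate-like cells of both conditions were of like median depth but held unlike amounts of RNA from other cell types. Their median was 21431.5 UMIs in control (4181 to 28171) and 23478 UMIs in Maf LSEC-KO (5063 to 91907). At least 2 *Pecam1* and *Cdh5* UMIs were present in 5 of 8 and 5 of 9, and the sinusoidal endothelial list was carried by 7 of 8 and 5 of 9. The 12 sinusoidal endothelial markers summed to 9791 CPM in control (321 to 16161 CPM per cell) and 6656 CPM in Maf LSEC-KO (267 to 9965 CPM per cell). The 8 macrophage markers summed to 70.0 CPM in control (0 to 262 CPM per cell), with 2 of 8 genes at 0, and to 1299 CPM in Maf LSEC-KO (0 to 3258 CPM per cell), with 0 of 8 genes at 0. The macrophage list was carried by 0 of 8 and 3 of 9 stellate-like cells. These 3 cells weigh heavily in the sums behind the ratios. They held 34101, 68941 and 33454 of the 205530 Maf LSEC-KO UMIs outside mitochondrial and ribosomal protein genes. The largest control cell held 25246 of 128589. The 7 leukocyte markers summed to 0 CPM and 258 CPM. The part of this foreign RNA in each ratio was not tested, and ratios are therefore also given for cells with fewer than 2 *Pecam1* and *Cdh5* UMIs (3 control, 4 Maf LSEC-KO) and without the cells that carried the macrophage list (8 and 6). The first of these sets was not free of endothelial RNA, and unevenly so. The LSEC gene *Clec4g* held 12 UMIs in its control cells and 0 in its Maf LSEC-KO cells. The share of sinusoidal markers with 2 or more UMIs reached 0.667 in its control cells and 0.0833 in its Maf LSEC-KO cells.

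A gene was compared when it reached 50 CPM in 1 or both of the libraries, and of 5026 such genes 908 were at least 2-fold higher in the Maf LSEC-KO stellate-like cells (18.1%) and 605 were at least 2-fold lower (12%), with a median log2 ratio of 0.09. This is a rule of size with no test. When CPM was taken over the UMIs of all genes, the numbers were 521 higher and 698 lower, so that the higher genes went from 60.0% to 42.7% of those 2-fold apart. In the cells with fewer than 2 *Pecam1* and *Cdh5* UMIs they were 602 and 1042. The 74 genes that stood at least 100-fold over the barcodes outside the members in both libraries had a median log2 ratio of -0.65, with 61 of 74 below 0, and together made up 5.24% of the UMIs of the control cells (3.29 to 7.29% per cell) and 3.88% of those of the Maf LSEC-KO cells (2.16 to 9.78%). Less stellate RNA per barcode and more RNA from other cells cannot be told apart here, and ratios near -0.65 are those of the stellate genes in general. Scaling to these 74 genes moved each log2 ratio up by 0.43.

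*Hgf* (chr5:16553495-16620152, plus strand), the growth factor that stellate cells supply to hepatocytes, had the lowest ratio of the 15 listed ligand genes that reached 50 CPM. It held 240 UMIs in the 8 control cells, at 275 CPM in the lowest, 1896 CPM in the median and 3012 CPM in the highest cell. It held 67 UMIs in the 9 Maf LSEC-KO cells, at 0, 267 and 836 CPM. Of the 8 control cells 7 lay above the highest Maf LSEC-KO cell, and no Maf LSEC-KO cell lay above the control median. The log2 ratio was -2.52 (-2.93 to -2.12). It was -3.48 in the cells with fewer than 2 *Pecam1* and *Cdh5* UMIs (60 and 6 UMIs), -2.34 in the cells with more, and -2.01 without the cells that carried the macrophage list. After thinning each cell to 4500 UMIs, *Hgf* was found in 7 of 7 control and 5 of 9 Maf LSEC-KO cells, with 49 and 12 UMIs. Barcodes that were not members, mostly endothelial, also held *Hgf*, at 131 CPM in control and 65.2 CPM in Maf LSEC-KO, and 46.5% and 33.0% of them had a UMI of it, at median depths of 8571 and 13398.5 UMIs.

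**Figure D3:**
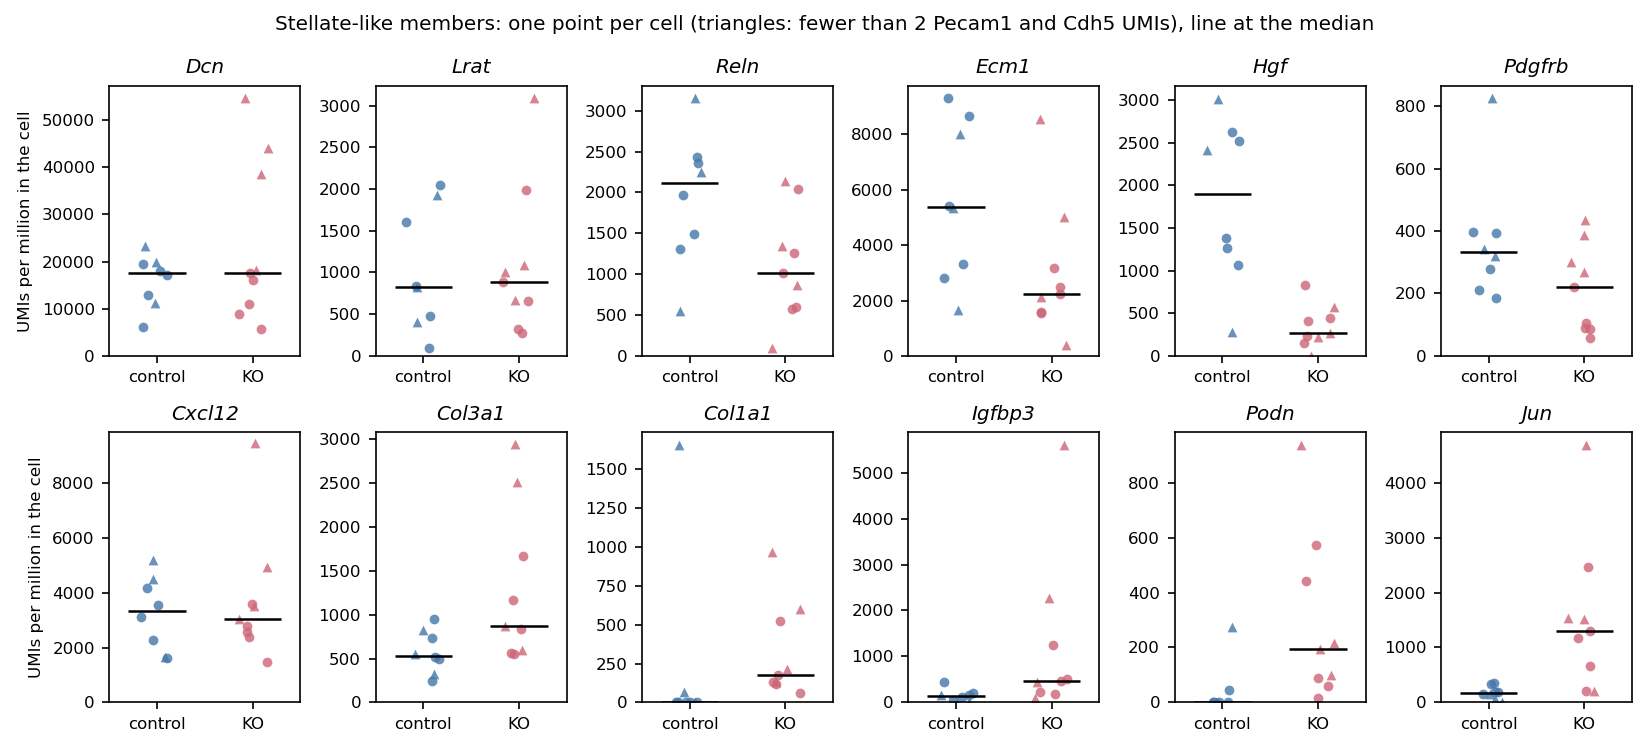
Each point is 1 stellate-like cell (8 control, 9 Maf LSEC-KO), its height the CPM of the gene named above the panel, the line the median, and triangles the cells with fewer than 2 *Pecam1* and *Cdh5* UMIs. *Hgf* has 7 of 8 control cells above every Maf LSEC-KO cell, *Dcn* medians lie level at 17607 and 17614 CPM, and *Jun* has 7 of 9 Maf LSEC-KO cells above every control cell.

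Other secreted ligands did not move as 1 group. Of 28 listed ligands 15 reached 50 CPM, 3 of them at least 2-fold higher (*Igfbp3*, *Igf1*, *Cxcl1*) and 5 at least 2-fold lower (*Hgf*, *Bmp10*, *Bmp5*, *Gas6*, *Gdf2*), with a median log2 ratio of -0.54, where 18.1% of all genes were higher and 12% lower. *Bmp10* held 19 and 6 UMIs and was present in 6 of 8 and 3 of 9 cells, a log2 ratio of -2.34 (-3.95 to -0.96). *Bmp5* held 74 and 43 UMIs, at -1.46 (-2.04 to -0.90), and came to -0.73 without the cells that carried the macrophage list. *Gas6*, with 20 and 14 UMIs at -1.19, turned to 1.96 in the cells with fewer than 2 *Pecam1* and *Cdh5* UMIs. *Gdf2*, whose product BMP9 signals to endothelial cells, held 71 and 56 UMIs, at -1.02 (-1.55 to -0.49), and stood at -0.15 in the cells with fewer than 2 *Pecam1* and *Cdh5* UMIs, with 16 UMIs on each side. All 3 BMP ligands were at or below 0.34 CPM outside the members. *Rspo3*, a Wnt co-agonist, held 130 and 119 UMIs at -0.80, and *Cxcl12* held 412 and 538 UMIs at -0.29 (-0.48 to -0.10). Both lay within 2-fold of control, and *Cxcl12* turned to 0.14 in the cells with fewer than 2 *Pecam1* and *Cdh5* UMIs and to 0.24 without the cells that carried the macrophage list. *Igfbp3*, which encodes a binding protein of insulin-like growth factors, held 20 UMIs in control (0 to 443 CPM, median 138 CPM) and 133 UMIs in Maf LSEC-KO (100 to 5593 CPM, median 464 CPM). Of the 9 Maf LSEC-KO cells 5 lay above the highest control cell, and the log2 ratio was 2.06 (1.37 to 2.81).

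The chemokine gene *Cxcl14* and the sphingosine 1-phosphate receptor gene *S1pr3* were both near 0 outside the members, at or below 0.99 and 0.21 CPM. *Cxcl14* held 19 UMIs in 6 of 8 control cells and 0 UMIs in 9 Maf LSEC-KO cells. Against a floor of 3 UMIs over the group, its log2 ratio was -3.34 or lower. *S1pr3* held 18 and 4 UMIs, a log2 ratio of -2.85 (-4.87 to -1.24), with 5 of 8 control cells above the highest Maf LSEC-KO cell. Without the cells that carried the macrophage list both held 0 UMIs in the Maf LSEC-KO cells, and the floor put their ratios at -1.77 and -1.69 or lower. When cells with 2 or more immune UMIs were left out, the values were -0.54 and -0.77. For *Cxcl14*, with 0 UMIs in all Maf LSEC-KO cells, -0.54 is again a bound set by the floor. The 4 *S1pr3* UMIs of Maf LSEC-KO lay in the cells that carried the macrophage list, so -0.77 is a bound of the same kind. Neither value shows a smaller difference.

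The matrix genes of the stellate-like cells moved in both directions. *Dcn* (chr10:97479609-97518143, plus strand) held 1954 and 2731 UMIs, with per-cell medians of 17607 and 17614 CPM and a log2 ratio of -0.19 (-0.28 to -0.11), which turned to 0.86 in the cells with fewer than 2 *Pecam1* and *Cdh5* UMIs. *Ecm1*, the gene of a secreted matrix protein, held 723 and 495 UMIs, from 1652 to 9302 CPM in control (median 5370 CPM) and from 402 to 8558 CPM in Maf LSEC-KO (median 2248 CPM). Its log2 ratio was -1.22 (-1.39 to -1.06) and stayed negative under 13 of 13 alternatives, up to -0.41 when cells with 2 or more immune UMIs were left out. *Reln* (chr5:21884454-22344702, minus strand) lay lower as well, with 256 and 193 UMIs, a log2 ratio of -1.08 (-1.36 to -0.81), and 4 of 8 control cells above the highest Maf LSEC-KO cell. *Postn*, the gene of periostin, held 63 and 28 UMIs at -1.85 (-2.54 to -1.18), the lowest of the 74 stellate genes. Of 18 proteoglycan and other matrix genes 15 reached 50 CPM, with 0 at least 2-fold higher and 4 at least 2-fold lower (*Ecm1*, *Reln*, *Postn*, *Sparcl1*) and a median of -0.39. Of all genes 18.1% were higher and 12% lower. Without the cells that carried the macrophage list *Ecm1* (-0.93), *Reln* (-0.61) and *Sparcl1* (-0.29) were within 2-fold, as were *Ecm1* (-0.55) and *Sparcl1* (-0.67) in the cells with fewer than 2 *Pecam1* and *Cdh5* UMIs, while *Postn* stayed 2-fold lower under 13 of 13 alternatives. *Dcn*, *Reln* and the other choosing genes selected the members in both libraries by the same limit.

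*Col3a1* and *Col1a1*, genes of the fibrillar collagens III and I, stood higher in the Maf LSEC-KO stellate-like cells. *Col3a1* (chr1:45311538-45349706, plus strand) held 79 UMIs in control, from 247 to 951 CPM per cell (median 532 CPM), and 193 UMIs in Maf LSEC-KO, from 551 to 2942 CPM (median 870 CPM). All 9 Maf LSEC-KO cells lay above the control median and 4 of them above the highest control cell, and the log2 ratio was 0.61 (0.23 to 1.01), or 1.34 in the cells with fewer than 2 *Pecam1* and *Cdh5* UMIs. *Col1a1* (chr11:94936224-94953042, plus strand) held 7 UMIs in 2 of 8 control cells and 40 UMIs in 9 of 9 Maf LSEC-KO cells, a log2 ratio of 1.84 (0.66 to 3.24). In the cells with fewer than 2 *Pecam1* and *Cdh5* UMIs it held 7 and 13 UMIs, and the log2 ratio of 0.74 (-0.69 to 2.31) was no longer 2-fold. One control cell decided the control value: it held 6 of the 7 UMIs at a depth of 4181 UMIs, held all 13 *Mgp* UMIs of the control cells, and was the cell with just 7 stellate markers. Without it the control cells held 1 *Col1a1* UMI and the log2 ratio was 4.60 (2.04 to 9.94). With it, the mean of the per-cell CPM gave a log2 ratio of 0.60. After thinning to 4500 UMIs, which left this cell out, *Col1a1* was found in 0 of 7 control and 7 of 9 Maf LSEC-KO cells. A *Col1a1* UMI was present in 0.0405% and 0.205% of the barcodes outside the members. *Col1a2*, the partner chain of collagen I, was within 2-fold, with 38 and 63 UMIs and a log2 ratio of 0.05 (-0.55 to 0.67). The control cell named above held 10 of its control UMIs, and without that cell the log2 ratio was 0.45 (-0.21 to 1.15). It was 0.69 (-0.02 to 1.41) without the cells that carried the macrophage list, and -0.57 in the cells with fewer than 2 *Pecam1* and *Cdh5* UMIs.

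Of the 11 interstitial collagen genes 9 reached 50 CPM, with *Col1a1* and *Col6a2* (5 and 26 UMIs, 1.70) at least 2-fold higher, 0 lower and a median of 0.05. Of all genes 18.1% were higher and 12% lower, so these 2 of 9 lie near the share of all genes. The 8 basement membrane genes that reached 50 CPM had 0 genes 2-fold apart and a median of 0.49. Among them *Col4a1* stood at 0.66, and it was also higher outside the members, at 731 and 1639 CPM. Its log2 ratio turned to -2.001 (-3.79 to -0.52) in the cells with fewer than 2 *Pecam1* and *Cdh5* UMIs (18 and 5 UMIs). It was 0.78 in the cells with more (95 and 280 UMIs) and 0.47 without the cells that carried the macrophage list. The endothelial part of the *Col4a1* ratio was not tested. The genes of collagen processing (7 of 9 reached 50 CPM, median 0.08) and of matrix proteases and their inhibitors (7 of 9, median 0.27) had 0 genes 2-fold apart. *Podn*, the gene of podocan, a small leucine-rich matrix protein, held 2 UMIs in 2 of 8 control cells and 37 UMIs in 9 of 9 Maf LSEC-KO cells, at 3.53 (1.58 to 6.63), against 0.05 and 0.07 CPM outside the members.

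Genes of vitamin A storage and stellate identity gave ratios on both sides of the median of the 74 stellate genes. *Lrat* (chr3:82892579-82903973, minus strand) held 120 UMIs in control (93.2 to 2045 CPM, median 832 CPM) and 146 UMIs in Maf LSEC-KO (276 to 3086 CPM, median 882 CPM). The per-cell levels overlapped throughout, and the log2 ratio of -0.39 (-0.75 to -0.03) turned to 0.62 in the cells with fewer than 2 *Pecam1* and *Cdh5* UMIs. Of 10 retinoid genes 5 reached 50 CPM, with a median of -0.39, and the 1 that was at least 2-fold lower was *Rarb*, a retinoic acid receptor gene, with 7 and 4 UMIs. Of 10 stellate transcription factor genes 9 reached 50 CPM, with 0 at least 2-fold higher, 2 lower and a median of -0.71, where 18.1% of all genes were higher and 12% lower. The 2 were *Tcf21* (42 and 25 UMIs, -1.43, -2.20 to -0.68) and *Foxf1* (29 and 18 UMIs, -1.36, -2.30 to -0.47), of which *Foxf1* turned to 0.43 in the cells with fewer than 2 *Pecam1* and *Cdh5* UMIs and *Tcf21* came to -0.59 without the cells that carried the macrophage list.

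The contractile and activation genes gave no common direction. Besides *Acta2* at 0 UMIs, 8 of 12 reached 50 CPM, with *Vim*, *Tpm1* and *Tagln* at least 2-fold higher and *Lgals1* and *Tpm2* at least 2-fold lower. In the cells with fewer than 2 *Pecam1* and *Cdh5* UMIs *Tpm1* turned to -0.57 and *Lgals1* to 0.58. *Vim*, the gene of the filament protein vimentin that endothelial cells also make, held 48 and 192 UMIs at 1.32 (0.86 to 1.81), and stood at 494 and 852 CPM outside the members. Its log2 ratio was 1.38 in the cells with fewer than 2 *Pecam1* and *Cdh5* UMIs (10 and 29 UMIs). It was 2.07 without the cells that carried the macrophage list, and at least 2-fold higher under 13 of 13 alternatives. *Des*, the gene of desmin, a filament protein of rodent stellate cells, held 21 and 22 UMIs at -0.61 (-1.54 to 0.33). Of 8 cell cycle genes 0 reached 50 CPM in the stellate-like cells.

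Of 11 genes of the receptors by which stellate cells read growth factors 8 reached 50 CPM, 0 of them at least 2-fold higher and 4 at least 2-fold lower (12% of all genes and 21 of the 74 stellate genes were), with a median of -1.04 against 0.09 for all genes and -0.65 for the 74 stellate genes. The highest of the 8, *Eng* at -0.43, is level with control once the ratios are scaled to those 74 genes. *Eng* was at least 2-fold lower, however, in both smaller sets of cells. It stood at -1.74 (-2.82 to -0.76) in the cells with fewer than 2 *Pecam1* and *Cdh5* UMIs (36 and 12 UMIs). Leaving out the cells that carried the macrophage list gave -1.355 (162 and 34 UMIs). The 4 were *Fgfr2* (101 and 55 UMIs, -1.55, -2.05 to -1.07), *Ngfr* (14 and 7 UMIs, -1.68), *Tgfbr3* (53 and 33 UMIs, -1.36) and *Pdgfrb* (41 and 27 UMIs, -1.28, -2.04 to -0.54). *Pdgfrb*, the receptor gene for the endothelial ligand PDGFB, was detected in 8 of 8 and 9 of 9 cells, at medians of 332 and 220 CPM. Its log2 ratio stood at -0.31 (-1.78 to 1.15) in the cells with fewer than 2 *Pecam1* and *Cdh5* UMIs and *Tgfbr3* at 0.02 there. Without the cells that carried the macrophage list *Fgfr2* (-0.81), *Tgfbr3* (-0.83) and *Pdgfrb* (-0.46) were within 2-fold, and *Ngfr* alone of the 4 stayed 2-fold lower under each of the 12 alternatives that gave it a value. Of 10 vasoactive receptor and effector genes 8 reached 50 CPM, with 0 higher and 3 lower: *Ednrb* (endothelin receptor, -1.25), *Vipr1* (receptor for vasoactive intestinal peptide, -1.17) and *Gucy1b1* (nitric oxide-sensitive guanylate cyclase, -1.11). In the cells with fewer than 2 *Pecam1* and *Cdh5* UMIs these 3 were within 2-fold, at -0.28, -0.67 and -0.42, and *Ednrb* turned to 0.31 without cells with 2 or more immune UMIs.

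Genes known to differ between stellate cells of the portal and the central side of the lobule did not shift together in the sums over all stellate-like cells. On the portal side *Igfbp3* was higher (2.06) and *Ngfr* lower (-1.68). On the central side *Podn* was higher (3.53), *Spon2* lower (-1.02), and *Rspo3* (-0.80), *Adamtsl2* (0.27) and *Loxl1* (0.15) lay within 2-fold. The central-side genes depended on the cells used. Without the cells that carried the macrophage list all were above control: *Podn* 4.85, *Loxl1* 1.19, *Adamtsl2* 1.08, *Rspo3* 0.28 and *Spon2* 0.26. In the cells with fewer than 2 *Pecam1* and *Cdh5* UMIs they went both ways: 3.17, 0.58, -0.79, -0.22 and -2.15 in the same order.

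**Figure D4:**
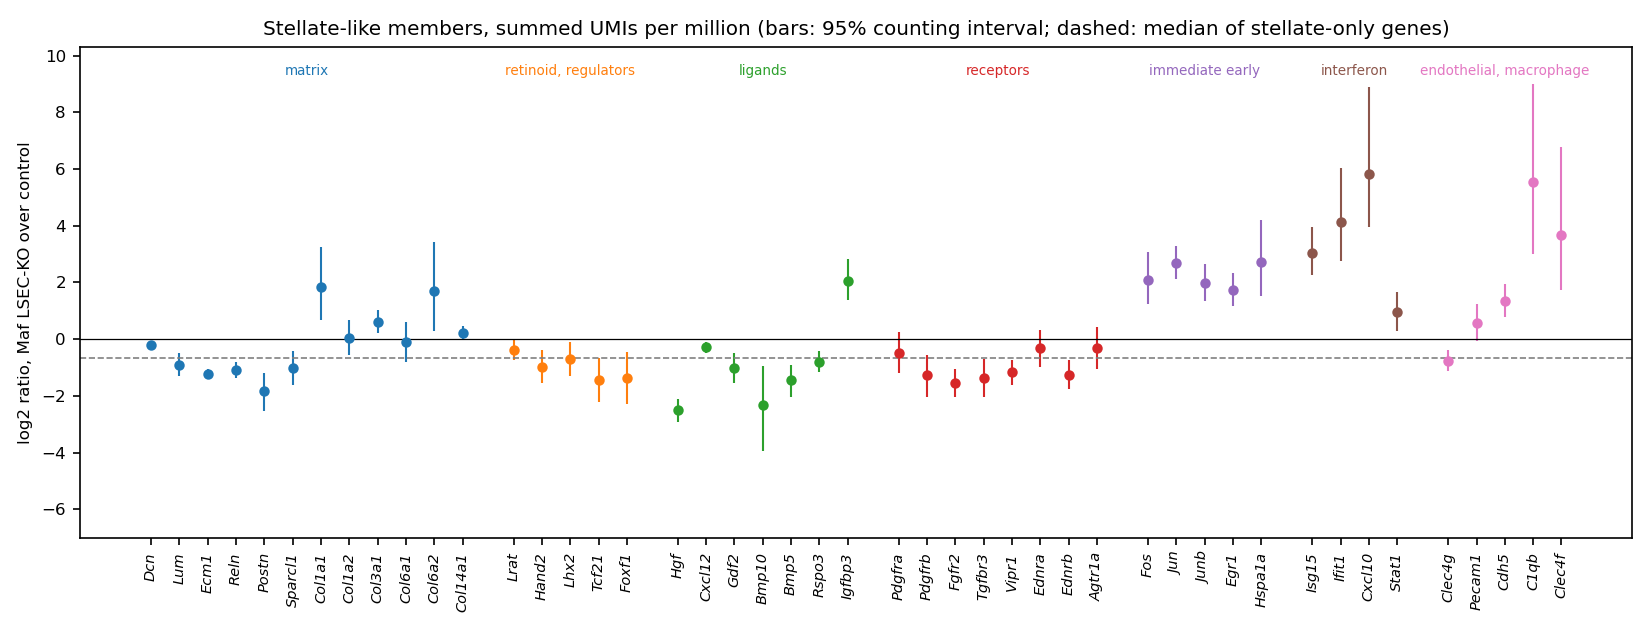
Each point is the log2 ratio of Maf LSEC-KO over control of 1 gene in the stellate-like cells (9 and 8 cells), with its 95% counting interval, grouped by role, and the dashed line is the median of the 74 stellate genes at -0.65. *Fgfr2* lies at -1.55, *Hgf* at -2.52, and the immediate early genes all lie above 1.

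All 10 immediate early and heat-shock genes were at least 2-fold higher in the Maf LSEC-KO stellate-like cells, with a median of 2.03, where 18.1% of all genes were. *Jun*, a transcription factor gene induced within minutes of stress or tissue dissociation, held 28 UMIs in control (0 to 356 CPM, median 173 CPM) and 284 UMIs in Maf LSEC-KO (201 to 4680 CPM, median 1305 CPM). Of the 9 Maf LSEC-KO cells 7 lay above the highest control cell, and the log2 ratio was 2.67 (2.10 to 3.28). The list was not peculiar to stellate cells: of 9 of its genes that reached 50 CPM outside the members, 8 were at least 2-fold higher there, with a median of 1.40, and *Jun* stood there at 401 and 1113 CPM. Among 6 measured TGF-beta response genes, *Smad7* (18 and 87 UMIs, 1.60) and *Skil* (4 and 27 UMIs, 2.08), both inhibitors that the pathway induces, were at least 2-fold higher and 0 lower, with a median of 0.31.

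The interferon-stimulated genes were higher, with much of the sum in a single cell. Of 9 genes 6 were at least 2-fold higher, with a median of 3.04, where 18.1% of all genes were higher and 12% lower. One Maf LSEC-KO cell held 77.2% of the *Isg15* UMIs, 87.6% of the *Ifit1* UMIs and 80.0% of the *Cxcl10* UMIs. Outside the members 3 of the 9 genes were at least 2-fold higher as well, with a median of 0.65. Without the 3 cells that carried the macrophage list *Cxcl10* held 2 and 1 UMIs, and *Isg15*, which had 6 of 9 Maf LSEC-KO cells above the highest control cell, stood at 1.95. When cells with 2 or more immune UMIs were left out, *Isg15* came to 0.94, which is within 2-fold. The 12 genes furthest above control in the stellate-like cells, named by size alone, were led by *Wfdc17*, *C1qb*, *Irf7* and *Ctss*, which macrophages express, and included the endothelial gene *Cd34* and the genes *Mest* and *Pcp4l1*, which were higher outside the members too (91.6 and 739 CPM, 2.48 and 579 CPM). The 12 furthest below were led by the LSEC gene *Dnase1l3*, at 197 and 1 UMIs and a log2 ratio of -8.30, against 3388 and 90.2 CPM outside the members, followed among others by *Wnt2* and *Fcgr2b*, which LSECs also express. Of the 5 macrophage markers that reached 50 CPM 5 were at least 2-fold higher, and of 12 sinusoidal endothelial markers 1 was higher and 4 lower. *Maf* itself stood at 1540 and 185 CPM in the stellate-like cells, a log2 ratio of -3.06 (-3.60 to -2.55), and at -2.89 in the cells with fewer than 2 *Pecam1* and *Cdh5* UMIs, where it held 20 and 3 UMIs. The LSEC gene *Clec4g* held 12 and 0 UMIs in the same cells. The bead target *Mcam* had 0 UMIs in those 3 control and 4 Maf LSEC-KO cells, and 9 and 68 UMIs in the stellate-like cells with 2 or more *Pecam1* and *Cdh5* UMIs.

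The mesothelial-like members were the set whose number differed most between the libraries. The serous membrane genes *Msln* (mesothelin), *Upk3b* and *Lrrn4* led them, and *Msln* stood at 4721 CPM in the 1 control cell and at 1237 CPM in the 10 Maf LSEC-KO cells (409 to 4000 CPM per cell), against 0.05 and 0.12 CPM outside the members. They were members through *Dcn* (121 UMIs in the control cell and 890 in the Maf LSEC-KO cells) and *Col3a1* (26 and 215 UMIs), while *Lrat*, *Reln* and *Rgs5* had 0 UMIs in them in both libraries. No member fell 1 marker short of this list, so the count did not turn on the limit. *Igfbp5*, which encodes a binding protein of insulin-like growth factors, was present in 9 of 10 Maf LSEC-KO cells, at a median of 6058 CPM (0 to 16336 CPM), and stood at 2791 CPM in the control cell. *Col1a1* was present in 7 of 10 Maf LSEC-KO cells, at a median of 186 CPM (0 to 3389 CPM), and at 164 CPM in the control cell. *Gas6* stood at 3777 and 2040 CPM, *Timp2* at 4967 and 1523 CPM and *Vim* at 7512 and 3420 CPM. With 1 control cell, these values stand side by side and give no ratio. At least 2 *Pecam1* and *Cdh5* UMIs were present in 4 of 10 Maf LSEC-KO cells and in 0 of 1 in control. The sinusoidal and the vascular endothelial list were each carried by 2 of 10 Maf LSEC-KO cells. The endothelial part of these levels was not tested.

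The smaller sets entered through other genes of the rule. The 8 cholangiocyte-like members of Maf LSEC-KO held 154 *Rgs5* UMIs, 92.2% of their UMIs of the 7 genes, and the 2 of control held 34 (91.9%), so that *Rgs5*, taken as a pericyte gene, made up most of the sums that chose them. They held *Spp1* (osteopontin) at 32448 and 21763 CPM and *Epcam* at 1051 and 994 CPM, and 6 and 38 further barcodes with the cholangiocyte list lay outside the members. In Maf LSEC-KO 8 members, and in control 1, were 1 marker short of this list, and all of these were mesothelial-like members. The 2 smooth muscle-like members held 602 of the 1053 *Acta2* UMIs of the Maf LSEC-KO library (57.2%), with 170 *Col3a1* and 33 *Col1a1* UMIs. The 2 portal fibroblast-like members held 544 *Dcn*, 150 *Col3a1* and 54 *Col1a1* UMIs. In control, 1 member with 216 *Dcn*, 56 *Col3a1* and 20 *Col1a1* UMIs missed the portal fibroblast list, with 5 of the 6 markers needed, and was counted among the members with an endothelial list alone.

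Over all members, 342 of 4901 genes were at least 2-fold higher in Maf LSEC-KO (6.98%) and 286 at least 2-fold lower (5.84%), with a median log2 ratio of 0.11. CPM over the UMIs of all genes gave 211 and 290. Because the sets made up unlike parts of the members (8 of 24 stellate-like in control, 9 of 49 in Maf LSEC-KO), these ratios follow the makeup of the members as well as the levels within a set, and the parts of both cannot be told apart in the sums. The stellate list shows this. Of its 18 genes, 17 reached 50 CPM, and 13 of these were at least 2-fold lower, with a median of -1.59, against 7 of 18 and -0.77 within the stellate-like cells. Of 7 mesothelial markers 4 were at least 2-fold higher, with a median of 1.01, and 5 of 8 smooth muscle markers were higher, among them *Acta2* (21 and 716 UMIs, 3.36) and *Tagln* (5 and 511 UMIs, 4.94). Of 6 portal fibroblast markers that reached 50 CPM 4 were higher, *Dpt* (4 and 100 UMIs, 2.91), *Fbln1* (3 and 109 UMIs, 3.45), *Clec3b* (1.80) and *Eln* (1.35).

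Of the 12 genes furthest above control over all members, *Pcp4l1* (5.78), *Fcor* (4.94), *Mest* (4.35) and *Ly6c1* (0 and 172 UMIs) were also far apart outside the members, where *Fcor* stood at 3.80 and 803 CPM and *Ly6c1* at 11.2 and 549 CPM. *Fbln1*, *Adamtsl1* (2 and 62 UMIs, 3.22) and *Wfdc2* (2 and 58 UMIs, 3.12) were the ones at or below 2.62 CPM outside. Of the 12 furthest below, *Dnase1l3* (-4.90), *Maf* and *Col13a1* (-4.32) were apart outside the members as well, at 325 and 8.23 CPM for *Col13a1*. *Cxcl14*, *S1pr3* (-3.66), *Bmp10* (-3.40) and *Hgf* (-3.27) were the ligand and receptor genes of the stellate-like cells, which held 240 of the 247 *Hgf* UMIs of the control members.

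*Dcn* UMIs lay in members to 93.0% in control and 94.8% in Maf LSEC-KO, those of *Col1a1* to 93.6% (44 of 47) and 95.9% (301 of 314), and those of *Col3a1* to 82.7% and 90.2%. The rule chose the members on these 3 genes, so these shares are a description. Of the *Lrat* UMIs, which the rule used as well, 55.6% and 68.9% lay in members, and of those of the basement membrane collagen gene *Col4a1*, which it did not use, 0.543% and 0.933%. The cells that held *Dcn* and *Col1a1* were not the same kinds. Stellate-like cells held 76.0% of the *Dcn* UMIs in control and 60.4% in Maf LSEC-KO, and mesothelial-like cells 4.71% and 19.7%. Of the *Col1a1* UMIs, stellate-like cells held 14.9% and 12.7% and mesothelial-like cells 8.51% and 41.4%, while members with an endothelial list alone held 70.2% and 13.1%. These last shares rest on few cells: 20 of the 33 control UMIs lay in the member that missed the portal fibroblast list by 1 marker, and all 41 Maf LSEC-KO UMIs lay in 1 cell.

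Ligand genes that endothelial cells can also express showed where their RNA lay. Stellate-like cells held 412 of 536 *Cxcl12* UMIs in control (76.9%) and 538 of 1218 in Maf LSEC-KO (44.2%), and 57 of 69 *Sparcl1* UMIs in control (82.6%) and 45 of 1041 in Maf LSEC-KO (4.32%). Outside the stellate-like cells the Maf LSEC-KO library thus held more UMIs of both genes, while within them *Sparcl1* had a log2 ratio of -1.02 and *Cxcl12* of -0.29. Mesothelial-like cells, 10 of 5423 barcodes, held 1549 of the 8087 *Igfbp5* UMIs of Maf LSEC-KO (19.2%), and the 1 control cell 3.90%. Of these 10 barcodes, 4 also held at least 2 *Pecam1* and *Cdh5* UMIs. *Gdf2* lay in stellate-like cells to 78.9% and 70.0%, and *Hgf* lay in members to 4.40% and 1.88% only, since the many endothelial barcodes held it at a low level.

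**Figure D5:**
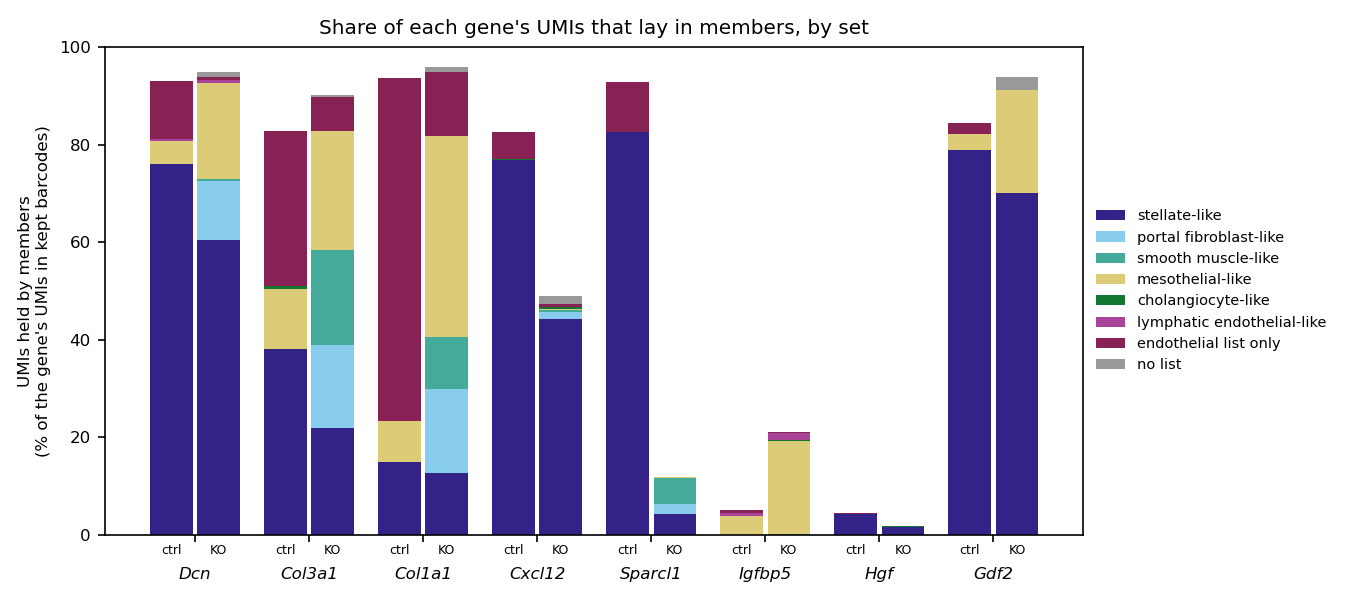
Stacked bars give, for 8 genes, the share (%) of a library's UMIs in barcodes over the depth limits that lay in each set of members, control beside Maf LSEC-KO, and the rest of each bar lay outside the members. *Dcn* and *Col1a1* reach over 90% in both libraries, while the stellate-like part of *Sparcl1* stands at 82.6% in control and 4.32% in Maf LSEC-KO.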

How the data were processed

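Livers of 3 mice per condition were pooled, and 1 library per condition was made with the 10x 3′ chemistry. The authors deposited filtered UMI count matrices made with Cell Ranger 6.0.2 against mm10, per the labels. The submitters' notes also name Seurat 5.0.1, which was not used here. The deposited counts are raw UMI counts per gene and barcode, without the study's empty-droplet subtraction, its removal of doublets or its marker-based removal of cells. The libraries held 5664 barcodes with 47681895 UMIs (control) and 7091 barcodes with 89872764 UMIs (Maf LSEC-KO).

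Barcodes of at least 1500 UMIs and 750 genes were kept. UMIs were summed over the cells of a set, and CPM was taken over UMIs outside mitochondrial and ribosomal protein genes. Ratios have exact 95% conditional intervals, and shares exact Clopper-Pearson intervals. There was no test, and a gene at 0 was set to a floor of 3 UMIs. Genes were called apart at 2-fold, from 50 CPM in either library. Named genes were the 12 highest and 12 lowest ratios with a UMI in at least 20% of the cells and no cell over 50% of the UMIs, besides all genes of fixed lists. A comparison of endothelial-low members had been planned, and all members were used because control held under 10 of them. The members and lists were chosen with earlier results of these data known. No doublet caller was run, and *Pecam1* and *Cdh5* UMIs are given instead. Alternatives were the scaling (edgeR 4.0.16 for TMM factors only), the CPM minimum, the mean over cells, and cells left out. Python 3.11.15, numpy 2.4.6, scipy 1.17.1 and pandas 2.3.3 were used, and scripts were tested on simulated data. Gene positions are from GENCODE M21. Some results are not reported here.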

Additional observations from a re-analysis of the deposited data

Results flagged for a closer look

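The depth limits left out some barcodes that met the rule on the 7 genes. Of 1668 Maf LSEC-KO barcodes below 1500 UMIs or 750 genes, 4 met it (0.240%), where a count of 0 would allow 0.180%. They held 852 to 1581 UMIs, their sums of the 7 genes reached 9 at most (median 5.5), and 0 of the 4 had 2 or more *Pecam1* and *Cdh5* UMIs. In control 2 of 703 such barcodes met the rule (0.284%, where a count of 0 would allow 0.427%), so the share was not higher in Maf LSEC-KO, and these barcodes entered no comparison.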

How the results depend on the processing

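No paired analysis was possible because each condition was 1 library, and for the same reason no replicate could be left out. The share of members was 0.161% and 0.424% when members with 2 or more *Pecam1* and *Cdh5* UMIs were left out, and 0.553% in Maf LSEC-KO when 3 of the 7 genes had to be detected. All barcodes with the cholangiocyte list, in or outside the members, made up 0.161% and 0.848%. For all members, the numbers of genes at least 2-fold higher and lower, 342 and 286 as reported, became 606 and 531 in cells with fewer than 2 *Pecam1* and *Cdh5* UMIs, 533 and 550 as the mean over cells, 872 and 562 at a minimum of 20 CPM, 61 and 86 at 200 CPM, and 908 and 605 in the stellate-like members only. CPM over all genes gave 211 higher, and leaving out cholangiocyte-like and mesothelial-like members gave 533 higher. The higher genes were 54.5% of those apart as reported, 42.1% with CPM over all genes and 41.5% at 200 CPM. For the stellate-like cells, 908 and 605 became 602 and 1042 in cells with fewer than 2 *Pecam1* and *Cdh5* UMIs, 1451 and 991 without cells with 2 immune UMIs, 1450 and 1237 at 20 CPM, 177 and 116 at 200 CPM, and 1777 and 273 when scaled to the 74 stellate genes, with 521 higher with CPM over all genes. Scaling to the stellate genes put 86.7% of the genes apart on the higher side and the median of all genes at 0.63, against 60.0% and 0.09, and the cells with fewer than 2 *Pecam1* and *Cdh5* UMIs put 36.6% there. TMM and median-of-ratios scaling kept each number within 1.5 times. Some genes called 2-fold apart changed direction. Over all members these were *Pdgfrb* (0.19), *Cxcl10* (-1.40), *Foxf1* (0.45) and *Tgfbr3* (0.0050) in cells with fewer than 2 *Pecam1* and *Cdh5* UMIs, and *Adamtsl2* (0.27) and *Tpm2* (-1.35) in the stellate-like members only. In the stellate-like cells these were *Fcgr2b* (0.11), *Foxf1* (0.43), *Gas6* (1.96), *Lgals1* (0.58), *Tgfbr3* (0.016) and *Tpm1* (-0.57) in cells with fewer than 2 *Pecam1* and *Cdh5* UMIs, *Ednrb* (0.31), *Spon2* (0.94), *Tpm1* (-0.87) and *Tpm2* (0.46) without cells with 2 immune UMIs, *Gas6* (0.28) and *Spon2* (0.26) without cells that carried the macrophage list, and *Gas6* (0.041) as the mean over cells. Of genes within 2-fold, *Dcn*, *Lrat* and *Cxcl12* changed direction under 5 of 13 alternatives, namely the 3 that left out cells by their endothelial or immune RNA, the mean over cells, and scaling to the 74 stellate genes. *Col4a1*, also within 2-fold, kept its direction under 12 of 13 alternatives and turned to -2.001 in cells with fewer than 2 *Pecam1* and *Cdh5* UMIs. The cause of these changes was not tested. *Hgf*, *Postn*, *Bmp10*, *Col6a2*, *Igfbp3*, *Podn*, *Jun*, *Vim*, *Smad7*, *Skil*, *Cxcl1* and *Dpt* kept their direction and stayed 2-fold apart in the stellate-like cells under 13 of 13 alternatives. Depth limits the low genes most, and many genes named as 2-fold apart rest on fewer than 20 UMIs in 1 or both libraries. Among them are *Podn*, *Cxcl14*, *Bmp10*, *Col1a1*, *Col6a2*, *S1pr3*, *Ngfr*, *Skil*, *Smad7*, *Rarb*, *Foxf1*, *Gas6*, *Cxcl1*, *Dpt* and *Tagln*.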
